A study of Mus musculus with 4 samples.

Results

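Low GC promoters are the promoters of protein-coding genes whose 2 kb window, centred on the transcription start site (TSS), holds less than 45% G and C bases. Of 22367 protein-coding genes of GENCODE vM1, 4955 had such a window, and 477 of these were marked, meaning that they held 50 or more chromatin immunoprecipitation reads in the knockout and the wild-type library combined. The reads were thus used to select the members and to choose 1 TSS per gene, the annotated one with the most reads. The other 11709 marked promoters, of 45% GC or more, served for comparison. The 2 libraries came from spleen B cells of mice aged 6 to 14 weeks, kept after depletion of cells bearing CD43 and stimulated during 2 days by LPS at 25 µg/ml and by anti-IgD on dextran at 2.5 ng/ml or IL-4 at 5 ng/ml. One library is labelled PA1-KO and 1 PA1-WT, both with the antibody label H3K4. The labels give neither the allele or Cre behind the knockout, nor the methylation state, nor which second stimulus these libraries had. The other 2 of the 4 samples were not analysed here.

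Lysine 4 of histone H3 is methylated at active and poised promoters, with trimethylation concentrated on the nucleosomes that flank a start site and monomethylation at enhancers. The protein PA1 works with PTIP inside the MLL3 and MLL4 complexes, which methylate this residue. Most mouse promoters lie in CpG islands, and many such promoters carry H3K4 trimethylation whatever the cell type. Promoters poor in G and C mostly lack CpG islands, and many belong to genes used by few cell types, such as sensory receptors or immune receptors.

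The sequences printed next are those of promoters on which the results turn: 4 of the members with the most reads, then 4 of the leading members higher in the knockout library and 2 of those lower in it. Each is given 5′ to 3′ in the direction of the gene, from 250 bases before the TSS to 29 bases after it, in NCBIM37 (the assembly that mm9 also is). Capitals mark matches on either strand to 13 motifs, those present here being the TATA box TATAAA, the CCAAT box CCAAT, the E box CAGCTG, the GC box GGGCGG, GAGGAAGT (PU.1), GAAANNGAA (IRF), TTCNNNGAA (STAT) and TGGAAA (NFAT), which can overlap.
Tnfaip3, chr10:18731740-18732019, minus strand, most reads: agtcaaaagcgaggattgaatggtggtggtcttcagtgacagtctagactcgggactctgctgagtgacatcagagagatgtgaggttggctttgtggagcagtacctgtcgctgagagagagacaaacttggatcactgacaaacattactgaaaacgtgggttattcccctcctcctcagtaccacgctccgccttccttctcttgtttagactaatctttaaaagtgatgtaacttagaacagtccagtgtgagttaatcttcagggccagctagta
Gimap6, chr6:48656206-48656485, minus strand, most reads: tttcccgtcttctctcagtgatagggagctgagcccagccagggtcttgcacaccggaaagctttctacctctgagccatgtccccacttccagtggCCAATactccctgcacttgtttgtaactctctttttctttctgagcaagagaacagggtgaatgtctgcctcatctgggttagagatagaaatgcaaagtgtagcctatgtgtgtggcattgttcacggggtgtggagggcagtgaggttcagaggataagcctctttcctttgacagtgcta
Glcci1, chr6:8460977-8461256, plus strand, most reads: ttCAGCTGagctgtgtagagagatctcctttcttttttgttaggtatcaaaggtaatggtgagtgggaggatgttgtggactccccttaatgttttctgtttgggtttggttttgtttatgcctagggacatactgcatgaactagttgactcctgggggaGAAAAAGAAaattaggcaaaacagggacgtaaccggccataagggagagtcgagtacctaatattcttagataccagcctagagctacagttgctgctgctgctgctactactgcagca
Gimap1, chr6:48688803-48689082, plus strand, most reads: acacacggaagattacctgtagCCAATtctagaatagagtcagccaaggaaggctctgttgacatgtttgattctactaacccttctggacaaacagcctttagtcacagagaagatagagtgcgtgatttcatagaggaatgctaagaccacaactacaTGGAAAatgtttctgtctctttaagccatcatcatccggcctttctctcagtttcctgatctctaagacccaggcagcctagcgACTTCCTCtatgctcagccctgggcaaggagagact
Rgs13, chr1:146024473-146024752, minus strand, higher in the knockout library: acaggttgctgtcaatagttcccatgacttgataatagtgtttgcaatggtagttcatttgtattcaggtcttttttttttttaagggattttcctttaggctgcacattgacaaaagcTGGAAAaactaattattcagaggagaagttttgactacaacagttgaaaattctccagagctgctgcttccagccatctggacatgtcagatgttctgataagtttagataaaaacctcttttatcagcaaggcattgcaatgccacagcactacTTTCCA
Igj, chr5:88955636-88955915, minus strand, higher in the knockout library: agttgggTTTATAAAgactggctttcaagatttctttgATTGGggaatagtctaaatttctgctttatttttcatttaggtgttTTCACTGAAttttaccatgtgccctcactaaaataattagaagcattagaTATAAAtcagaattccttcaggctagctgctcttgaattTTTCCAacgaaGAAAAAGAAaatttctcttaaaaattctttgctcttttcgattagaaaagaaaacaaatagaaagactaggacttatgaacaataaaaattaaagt
Birc2, chr9:7835226-7835505, minus strand, higher in the knockout library: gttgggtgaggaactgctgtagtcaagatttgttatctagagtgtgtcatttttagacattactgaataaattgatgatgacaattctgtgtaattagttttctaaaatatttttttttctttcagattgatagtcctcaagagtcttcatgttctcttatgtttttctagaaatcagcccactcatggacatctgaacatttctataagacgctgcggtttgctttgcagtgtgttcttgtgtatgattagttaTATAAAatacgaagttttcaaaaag
Cd36, chr5:17341685-17341964, minus strand, higher in the knockout library: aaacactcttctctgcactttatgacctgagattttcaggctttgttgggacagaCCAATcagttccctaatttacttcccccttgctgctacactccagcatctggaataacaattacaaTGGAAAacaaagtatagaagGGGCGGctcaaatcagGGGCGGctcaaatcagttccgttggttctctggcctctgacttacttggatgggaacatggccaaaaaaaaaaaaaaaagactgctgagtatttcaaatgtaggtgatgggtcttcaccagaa
Ptgs2, chr1:151947004-151947283, plus strand, lower in the knockout library: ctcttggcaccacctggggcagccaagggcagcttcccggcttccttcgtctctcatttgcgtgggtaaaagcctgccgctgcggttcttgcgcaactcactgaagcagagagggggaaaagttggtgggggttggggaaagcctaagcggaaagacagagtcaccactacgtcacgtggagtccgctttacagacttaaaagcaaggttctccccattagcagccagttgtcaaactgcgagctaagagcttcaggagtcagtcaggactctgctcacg
Abca8b, chr11:109857130-109857409, minus strand, lower in the knockout library: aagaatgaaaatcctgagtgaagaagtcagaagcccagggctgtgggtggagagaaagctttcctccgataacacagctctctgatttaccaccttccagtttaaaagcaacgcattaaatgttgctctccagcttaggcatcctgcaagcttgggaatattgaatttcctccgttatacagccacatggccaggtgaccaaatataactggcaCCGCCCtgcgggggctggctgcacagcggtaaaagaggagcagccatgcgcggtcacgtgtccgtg
The Igj stretch was 29.3% GC with 2 CpG dinucleotides, and the Rgs13 stretch was 37.5% GC with no CpG. The Ptgs2 stretch was 55.7% GC with 12 CpGs, so that this promoter was GC rich next to the start and poor in GC over the wider window (44.7%). The 3 matches of the TATA box letters in the Igj stretch lay more than 100 bases before the start.

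Nuclear reads numbered 5259995 in the knockout and 5539475 in the wild type. Genotypes were not replicated and could not be tested against each other, so each ratio compares these 2 libraries, and its 95% interval covers counting error only. The labelled cell type fitted the marks: 37 of 39 B cell surface and signalling genes were marked, against 4 of 19 T and NK cell markers, 4 of 15 myeloid markers and 5 of 12 erythroid and stromal markers. Summed over all genes of a list, the T and NK cell markers gave 172 normalized RPM (reads per 1000000 after scaling) in the knockout and 162 in the wild type, the myeloid markers 50.3 and 64.5, and the erythroid and stromal markers 144 and 124. Among T and NK cell markers, Cd3e had 1 knockout read and no wild-type read, while the marked ones were Cd2 (407 and 382 reads), Gata3 (166 and 187), Lck (145 and 176) and Tbx21 (75 and 111). Among myeloid markers, Csf1r was at 0 reads in both libraries, while the marked ones were Cd14 (118 and 171), Cebpa (57 and 92), Itgam (35 and 27) and Fcgr3 (22 and 32). The part of these other cells in the results was not tested. The promoter of the PA1 gene itself (2900092E17Rik in this annotation, 56.2% GC and no member) held 114 knockout and 261 wild-type reads, a scaled ratio of 0.498 (95% interval 0.396 to 0.623), which describes the mark there and does not check the deletion.

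Few promoters of low GC content carried the mark. The share marked was 9.63% below 45% GC, against 49.8% from 45% to 50%, 68.8% from 50% to 55%, 77.1% from 55% to 60%, 79.4% from 60% to 65% and 74.8% from 65% on. Low GC promoters fell into 2 kinds: 4330 held fewer than 10 reads in both libraries combined, 477 held 50 or more, and only 148 lay between. Among the 4478 unmarked ones the median was 1 read and 1452 had none at all, which allows up to 3 reads. Where a window repeats other parts of the genome, fewer of its reads can be placed, and the unmarked windows had a median of 85.6% of their 25-base words occurring once in the genome, against 96.2% for the members. Whole receptor families made up much of the unmarked group. Olfactory receptors gave 982 low GC promoters of 1113, with 0 marked, and vomeronasal receptors 326 of 328, with 0 marked, while 32 of 77 low GC promoters of Zfp zinc finger genes were marked.

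**Figure D1:**
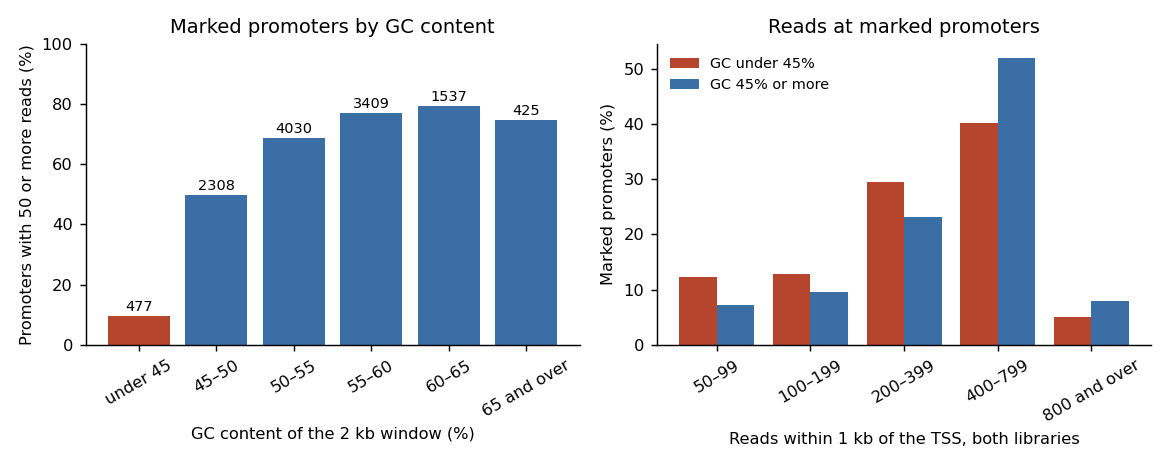
Left, percent of promoters marked (50 or more reads in both libraries combined) by GC content of the 2 kb window, with the number marked over each bar; the class under 45% stands at 9.63% and the others between 49.8% and 79.4%. Right, percent of the marked promoters of each group by reads within 1 kb of the TSS; 40.3% of low GC members and 51.9% of the others held 400 to under 800 reads.

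Since 50 reads were required, the reads of marked promoters are given as a description. The members' median was 377 reads (quartiles 197 and 533), against 465 for the other marked promoters (284 and 624), and 24 members had 800 or more. At the threshold of 50 reads, Gpr15 (34 knockout and 16 wild-type reads), 2810055G20Rik (29 and 21) and Nox1 (25 and 26) were just inside. Mnda (24 and 25), Ankrd49 (28 and 21) and Gm17231 (23 and 26) were just outside. At the GC threshold, Mrpl32, Nsg2 and Psmd10 at 44.98% were just inside with scaled ratios of 1.09, 0.847 and 1.19, and Gca, Slc28a2 and Rab19 at 45.03% just outside with 0.989, 1.17 and 1.12. Marked promoters numbered 149 with 44% to 45% GC and 276 with 45% to 46%.

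The 10 members with the most reads included Tnfaip3 and Ikzf1 of the gene lists. Cytip, a cytohesin-binding adaptor of leukocytes, held 675 knockout and 638 wild-type reads. Tnfaip3, which encodes the NF-κB inhibitor A20, held 657 and 623, and the immunity-associated GTPase gene Gimap6 held 641 and 619. Glcci1 followed with 587 and 565, Btla, an inhibitory receptor of lymphocytes, with 546 and 525, and Gimap1 with 523 and 487. All 10 leading members had more reads in the knockout library, which is the smaller one. The stress sensor gene Atf6 held 515 and 467, the splicing factor gene Sfpq 516 and 454, Ikzf1, which encodes the lymphoid transcription factor Ikaros, 497 and 463, and the adhesion scaffold gene Nedd9 489 and 459. Their scaled ratios ran only from 1.18 (Gimap6) to 1.30 (Sfpq), each interval lay above 1, and none reached 1.5-fold. Scaled instead to windows of their GC class away from promoters and enriched sites, all 10 lay below 1, from 0.863 (Gimap6) to 0.948 (Sfpq). The intervals of Cytip, Tnfaip3, Gimap6, Glcci1 and Btla then lay below 1. With the first scaling and the 5′-most TSS of the gene, 4 of the 10 turned below 1, namely Ikzf1 (0.715), Gimap1 (0.95), Sfpq (0.975) and Tnfaip3 (0.979). These were also wide domains: the Ikzf1 start lay in an island (a run of enriched 200 bp windows) of 12000 bp, and those of Cytip, Tnfaip3 and Atf6 in islands of 8800, 8000 and 8000 bp.

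More of the mark lay on the downstream side of the start at low GC promoters. Within 1 kb of the TSS, a median of 75.3% of the members' reads lay downstream (quartiles 56.8% and 86.3%), against 63.3% at the other marked promoters (50% and 77.4%). In classes of like reads that start at 50, 100, 200, 400 and 800 reads, the members were higher by 3.70, 13, 9.78, 11.5 and 6.76 percentage points, or 9.97 when weighted by the members' numbers. The annotated TSS was chosen by its reads, which can itself favour a placement, and with the start nearest the 5′ end of the gene the weighted difference was 11.8 points.

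Density over the start, relative to the whole window, was higher at members. Read density from 150 bp before to 50 bp after the TSS, divided by that of the whole 2 kb window, had a median of 0.885 at members (quartiles 0.433 and 1.64) and 0.424 at the others (0.151 and 0.963). The weighted difference at like reads was 0.41, with the smallest gap in the class from 100 reads (0.971 against 0.878). Averaged over promoters of 200 to under 800 reads (333 members and 8800 others), the members' profile peaked in the 50 bp bin from 100 bp downstream, at 29.6 reads per bin in both libraries together. The other promoters peaked lower and farther out, at 20.2 reads in the bin from 450 bp. The downstream peak stood 2.39 times above the upstream one at members and 1.5 times at the others. Both groups had their lowest point 100 bp upstream, at 0.273 of the downstream peak for members and 0.250 for the others, so the averaged trough was about as deep relative to each group's own peak. The share of reads within 3 kb of the TSS that lay within 1 kb showed no such gap, with medians of 86.8% at members and 85.7% at the others. At like reads it differed by -0.68 points, and by -20.1 points among the 24 members of 800 reads or more (57.1% against 77.3%).

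**Figure D2:**
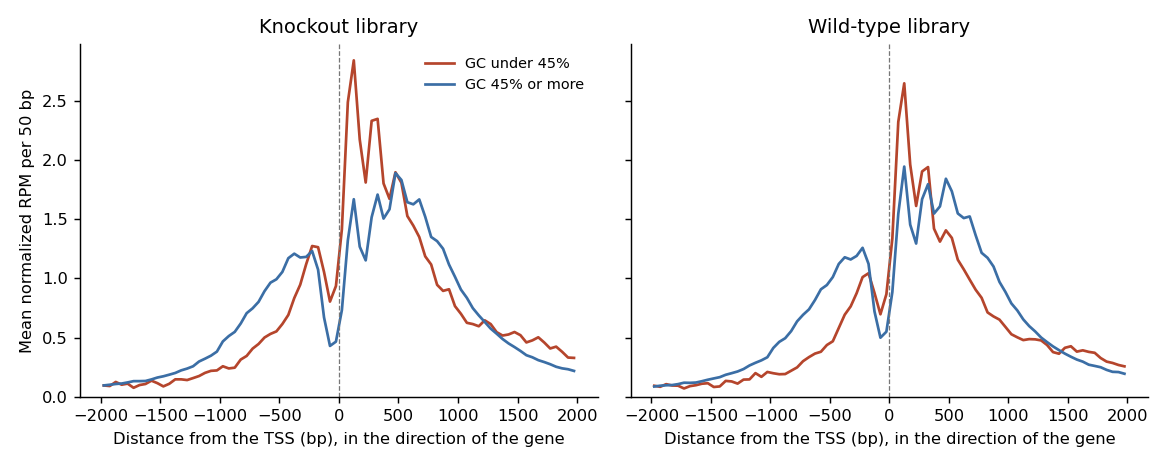
Mean normalized RPM per 50 bp bin against distance from the TSS in the direction of the gene, for promoters of 200 to under 800 reads, in the knockout (left) and wild-type library (right); red, GC under 45% (n = 333), blue, GC 45% or more (n = 8800). In both libraries the red line is higher just after the start, with its peak in the bin from 100 bp, and lower from 500 bp to 1000 bp upstream.

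The downstream share and the density at the start differed in the same direction in each library alone, while the place of the peak did not. The other promoters peaked in the bin from 450 bp in the knockout library (1.89 normalized RPM, against 1.67 from 100 bp) and in the bin from 100 bp in the wild type (1.95, against 1.84 from 450 bp). The members peaked from 100 bp in both (2.84 and 2.65). Among promoters of 200 to under 800 reads, the median downstream share was 75.6% in the knockout and 76.7% in the wild-type library for members, and 64.3% and 64.9% for the others. The median relative density at the start was 0.749 and 0.796 for members, and 0.319 and 0.408 for the others. Neighbouring starts differed in frequency. A divergent TSS of another gene lay within 2 kb of 7.34% of members and of 20.1% of the others. Where no other chosen TSS lay within 2 kb, the medians were 76.3% downstream at 429 members and 66.8% at 9138 others, with relative densities of 0.918 and 0.471. Where one did, they were 55.7% at 48 members and 52.7% at 2571 others, with 0.443 and 0.295. The groups were thus closest in downstream share next to another start, and the weighted difference at like reads was 8.32 points without those promoters.

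Islands at members were of about the length that their reads gave elsewhere. Their median length was 1600 bp against 2000 bp, equal to the others in the classes from 50, 200 and 400 reads (600, 1600 and 2400 bp), and longer only at 800 or more (5400 bp for 24 members against 3400 bp for 939 others). The weighted difference of 75.1 bp turned to -165 bp with the 5′-most TSS, so no direction is given for length.

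Members of 200 reads or more differed widely among themselves. The most one-sided downstream were Samd9l (99.7% of 288 reads, though only 49.2% of its 25-base words were unique), Gm20489 (98.1%) and Prpf18, a splicing factor gene (98.0%). At the other end, Cep290, a gene for a centrosome protein, had 0 of its 262 reads downstream, Gm6616 3.73% and Mdh1b 5.05%. Each of these last 3 had the chosen TSS of another gene within 2 kb, namely Tmtc3 at 1022 bp, Atg14 at 1008 bp and Fastkd2 at 323 bp. Relative density at the start was highest at 9530077C05Rik (4.94), Zfp940 (3.51) and Ctnnd1, which encodes p120 catenin (3.50). It was lowest at Poc5 (0), Mrpl32 (0.016) and Cenpk (0.030), of which the latter pair have a neighbouring start at 217 bp and 111 bp. The longest islands belonged to Gm8369 (17200 bp), Ikzf1 and A830031A19Rik (11000 bp, next to Bcl11a), and the shortest, of 800 bp, to Med24, Prim1, B230118H07Rik and, among others, 9530077C05Rik.

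Members also differed from other marked promoters in CpG content, measured as observed over expected CpG. Their median was 0.389, between the 0.150 of unmarked low GC promoters and the 0.635 of other marked promoters. A value of 0.6 or more, as in CpG islands, was met by 58 of 477 members (12.2%) and by 58.2% of the other marked promoters. These 58 members looked more like other promoters in shape, with a median of 68.4% of reads downstream and a relative density at the start of 0.452. The 170 members below 0.3 stood at 77.1% and 1.08. Of the 58, 17 had another chosen TSS within 2 kb, against 6 of the 170.

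The promoter letters of members were searched on both strands from 250 bases before to 50 bases after the TSS, and a match describes letters, not a bound factor. GAGGAAGT, the letters of a site for the B cell and myeloid factor PU.1, stood in 43 members (9.01%), 2.95% of other marked promoters, 3.91% of unmarked low GC promoters and 3.23% of all promoters. It matched in the Gimap1 stretch printed above, 6 bases before the start on the opposite strand. The GC box GGGCGG stood in 25.2% of members, 69.3% of other marked promoters, 3.01% of unmarked low GC promoters and 45.8% of all. Members again lay between the other groups for CCGGAAG, the core of sites for ETS family factors, at 13.8% against 19.0%, 1.16% and 11.4%. The letters of GAGGAAGT and CCGGAAG cannot match on the same bases and strand, since the letters before GGAAG differ. TATAAA, the TATA box, stood in 18.2% of members, 4.59% of other marked promoters, 32.2% of unmarked low GC promoters and 12.2% of all. Other overlaps between these motifs are limited to end letters. On the gene's strand and starting 45 to 10 bases before the TSS, where a TATA box works, it stood in 9 members (1.89%), against 0.820%, 5.81% and 2.53%. Other searched letters were not all most frequent at members. The octamer ATGCAAAT stood in 2.94% of members, 1.32% of other marked promoters and 3.33% of unmarked low GC promoters. GGGNNTTCC (NF-κB) stood in 6.92%, 7.07% and 3.42%, and TGGAAA in 23.9%, 13.9% and 32.6%. The letters CAGCTG, GAAANNGAA, TTCNNNGAA and GGAANNGAA (ETS with IRF) were more frequent at members than in either group. Base composition differs between these groups, and its part was not tested.

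Reads at members were shifted towards the knockout library when the libraries were scaled on marked promoters by TMM, a trimmed mean of log ratios. The median scaled ratio of knockout to wild type was 1.21 (log2 0.27, quartiles 0.13 and 0.42), against 0.995 for other marked promoters and 1 for all marked promoters. Of the 477 members, 420 (88.1%) had a ratio above 1, against 48.7% of the others. The members' reads summed to 96515 in the knockout and 89725 in the wild type, a pooled scaled ratio of 1.23 (95% interval 1.22 to 1.24). At like reads the members' median log2 ratio was 0.36 above that of the others. The gap was 0.67 in the class from 50 reads, 0.50 from 100, 0.36 from 200, 0.25 from 400 and 0.19 from 800, as the others' median ran from -0.48 in the first class to 0.10 in the last on the log2 scale, while the members' lay between 0.17 and 0.29. On each of the 20 chromosomes with 5 or more members, the members' median lay above that of the other promoters, by 0.18 to 0.38 on the log2 scale. A change in the share of marked cells and a change in the mark per cell cannot be told apart in such bulk libraries.

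The same shift was present in reads with no peak. In 2 kb windows without a promoter or an island, the TMM-scaled ratio was 1.37 (95% interval 1.36 to 1.37) below 45% GC, 1.14 from 45% to 50%, 0.975 from 50% to 55%, 0.830 from 55% to 60%, 0.700 from 60% to 65% and 0.586 from 65% on. Marked promoters in these classes followed in the same order, with median log2 ratios of 0.27, 0.14, 0.04, -0.08, -0.18 and -0.30. The knockout library held more reads outside islands and promoters (24.8% against 21.7%), and its fragments were poorer in GC, with a mean of 49.3% against 51.5% over all reads and 44.1% against 45.5% over reads outside. Unmarked low GC promoters with fewer than 10 reads had a pooled ratio of 1.39 (1.33 to 1.46), above that of the members, and those with 10 to 49 reads 1.15 (1.08 to 1.23), below it. GC content of the fragments and genotype cannot be told apart with 1 library each.

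The direction of the members' shift therefore depended on the scaling. Their median log2 ratio was 0.27 with TMM, 0.16 with total reads, -0.04 with reads outside islands and promoters, and -0.18 when each promoter was scaled to background windows of its own GC class. The first 3 of these differ by a constant, which moved the median of all marked promoters by -0.12 with total reads and by -0.31 with outside reads, and left the members 0.27 above it. Scaling within GC classes reversed the difference: at like reads the members then lay 0.24 below the other promoters, and 107 of 477 had a ratio above 1. All members share a single class, that below 45% GC, with a background ratio of 1.37. For the 298 members from 42.5% to 45% GC, background windows of like GC stood at 1.26. With classes of 2.5 points, an alternative added after seeing the data, the members' median was -0.10.

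**Figure D3:**
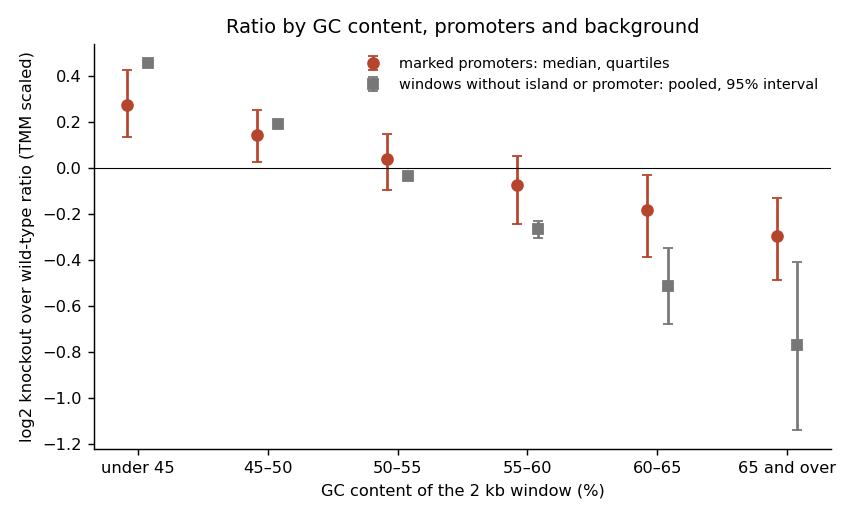
TMM-scaled log2 ratio of knockout to wild type against GC content of the 2 kb window, for marked promoters (red, median with quartiles) and for windows without island or promoter (grey, pooled reads with 95% interval). Promoters fall from 0.27 to -0.30 and the windows from 0.45 to -0.77; the members' positive median turns to -0.04 when scaled to reads outside islands and promoters and to -0.18 when scaled within GC classes.

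The gradient continued within the members. The 88 members below 40% GC had a median log2 ratio of 0.51, the 91 from 40% to 42.5% 0.31 and the 298 from 42.5% to 45% 0.24. The background windows of these classes had TMM-scaled ratios of 1.46, 1.34 and 1.26. Median reads of these 3 classes of members were 316.5, 370 and 395.5. Islands more than 5 kb from any TSS behaved alike: the 1297 below 45% GC had a median log2 ratio of 0.26 and the 4363 others -0.03, a difference of 0.30 at like reads. In each read class from 100 reads on, those low GC islands stood at or above the members (0.25 against 0.17 from 100 reads, and 0.35 against 0.29 from 800), and in the class from 50 reads both were at 0.19. Scaled within GC classes, the islands' difference was -0.14.

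A promoter was called higher with a ratio of 1.5 or more and lower with the inverse or less, in each case only if the interval left out 1. With TMM scaling, 46 members were higher (9.64%) and 4 lower (0.839%), where 0.665% of all 12186 marked promoters were higher and 4.9% lower. Members made up 3.91% of marked promoters and 56.8% of those called higher. By GC content, 27 of the 46 were among the 88 members below 40% GC, 8 among the 91 from 40% to 42.5% and 11 among the 298 above. Scaled within GC classes, 6 members were higher and 26 lower, where 3.12% of all marked promoters were higher and 2.45% lower. All 6 and all 4 of the lower ones were called under both scalings. Total reads gave 22 higher and 6 lower members, with 0.328% and 7.78% of all marked promoters, and reads outside islands and promoters gave 12 and 13, with 0.14% and 16.7%. Windows of 500 bp either side gave 75 higher and 2 lower of 476, with 1.21% and 3.71% of the 11632 promoters then marked. Background classes of 2.5 points gave 5 higher and 18 lower members, with the share over all marked promoters not computed.

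Among the 6 members higher under both TMM and GC class scaling were Rgs13, Igj, Ctla4, Birc2 and Rgs1. Rgs13, a brake on G protein signalling found in germinal centre B cells, held 84 knockout and 14 wild-type reads (16.6 and 2.43 normalized RPM), a ratio of 6.85 (95% interval 3.86 to 13.1). Its ratio was 5.00 within its GC class and 3.60 in windows of 2 kb either side, and the call was kept in both. Rgs1, a related regulator whose TSS lies 71688 bp away on chromosome 1, held 83 and 40 reads (16.4 and 6.94 RPM), a ratio of 2.37 (1.61 to 3.55). Both rest on few reads, and the third low GC member of the family, Rgs18, held 129 and 100 reads (1.47, 1.13 to 1.93), just under the fold threshold. The list of these regulators thus had 3 of 3 low GC promoters marked and 2 higher, where 9.64% of all members and 0.665% of all marked promoters were higher. All 3 lay below 40% GC, where 27 of 88 members were higher. Over all 10 marked promoters of the list, 2 were higher and the median log2 ratio was 0.04.

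Igj encodes the J chain, which joins secreted IgM and IgA into polymers. The promoter had 182 reads from the knockout and 64 from the wild type (36.0 and 11.1 RPM), a ratio of 3.25 (2.43 to 4.39). The T cell inhibitory receptor gene Ctla4 held 195 and 70 reads (38.6 and 12.1 RPM), a ratio of 3.18 (2.41 to 4.24). Both remained above 2 within their GC class, at 2.37 and 2.32. Birc2, which encodes the ubiquitin ligase cIAP1, held 137 and 72 reads (27.1 and 12.5 RPM), a ratio of 2.17 (1.62 to 2.93), with a call that was lost in windows of 2 kb either side (ratio 1.45). Its window was 35.1% GC, and its ratio of 1.59 within the GC class rests on the background ratio of 1.37 below 45% GC. Background windows below 40% GC stood higher, at 1.46.

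Other leading higher members lost the call within their GC class. Casp4, an inflammatory caspase, held 205 and 123 reads (40.6 and 21.3 RPM), a ratio of 1.90 (1.51 to 2.40), which became 1.39. Clec12a, an inhibitory lectin receptor, held 109 and 66 (21.6 and 11.4 RPM), a ratio of 1.88 that became 1.38. The scavenger receptor gene Cd36 went from 1.78 (192 and 123 reads) to 1.30. Asb4 went from 1.81 (146 and 92 reads) to 1.32, Zfand6 from 1.69 (239 and 161) to 1.24, and Zfp238, a transcriptional repressor gene, from 1.58 (465 and 335) to 1.16. Zfp238 also lost the call with total reads. The remaining 34 higher members had ratios from 1.51 to 2.43 and between 50 and 787 reads. Of all 46, 6 lay on chromosome X, which holds 45 members, where 9.64% of all members were higher.

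**Figure D4:**
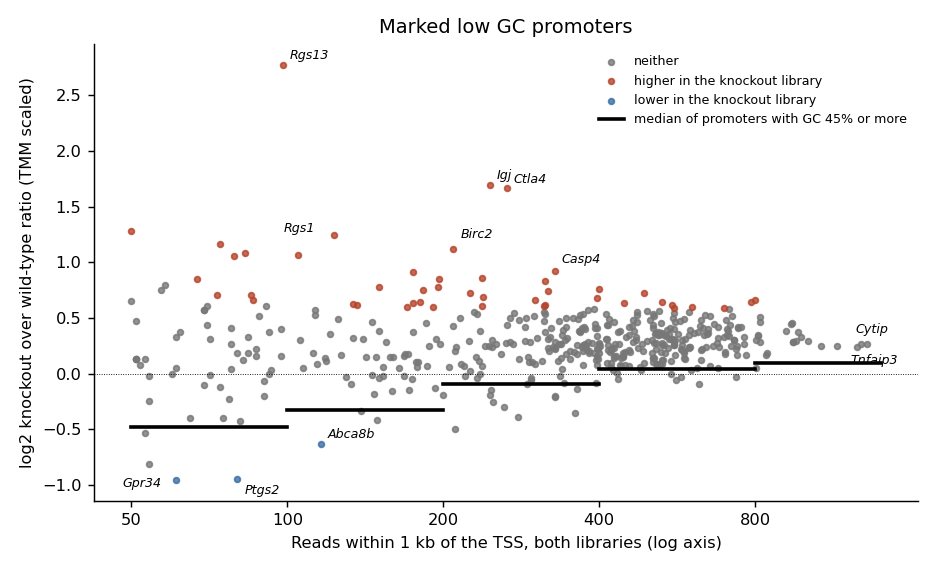
TMM-scaled log2 ratio of knockout to wild type against reads in both libraries (log axis) for the marked low GC promoters; red, the 46 higher, blue, 3 of the 4 lower (Trim12a, with 0 knockout reads, has no log value), grey, the rest, and black bars, the median of other marked promoters in each read class. Most points lie above the bars under this scaling, and Rgs13, Igj and Ctla4 stand highest among the labelled genes.

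The 4 lower members had few reads. Ptgs2, which encodes the inducible cyclooxygenase COX-2, held 25 knockout and 55 wild-type reads (4.95 and 9.54 RPM), a ratio of 0.519 (0.310 to 0.847). Gpr34, a receptor for lysophosphatidylserine, held 19 and 42 (3.76 and 7.28 RPM), a ratio of 0.516 (0.284 to 0.907). Abca8b, an ABC transporter gene, held 42 and 74 (8.31 and 12.8 RPM), a ratio of 0.648 (0.433 to 0.958). Gpr34 lost the call with the 5′-most TSS, and Abca8b in windows of 500 bp and of 2 kb either side. Trim12a, of the TRIM5-like antiviral genes, stood apart with 0 knockout and 59 wild-type reads, a ratio with an upper bound of 0.0736, or at least 17.2-fold lower when set against a floor of 3 reads. Only 41.9% of the 25-base words in the Trim12a window occur once in the genome. Its neighbours Trim12c (170 and 159 reads, ratio 1.22) and Trim30b (57 and 82, ratio 0.793) did not meet the call, while Trim5, nearer to it and unmarked, held 5 and 31 reads (ratio 0.184, 0.056 to 0.477). All lie on chromosome 7, which also holds the PA1 gene.

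**Figure D5:**
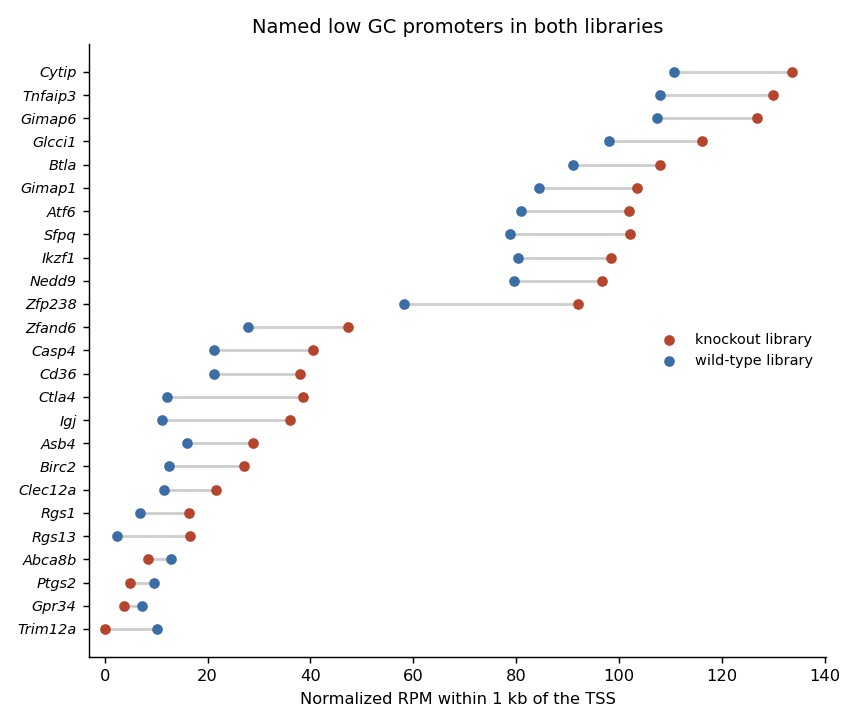
Normalized RPM within 1 kb of the TSS in the knockout (red) and wild-type library (blue) for the 10 members with the most reads, 11 of the leading higher and the 4 lower members. The 10 at the top run from 78.7 RPM (Sfpq, wild type) to 134 RPM (Cytip, knockout), and the gap is widest for its size at Rgs13 (16.6 against 2.43) and Trim12a (0 against 10.2).

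By function, 68 of the 477 members belonged to 1 of 19 gene lists, with 12 of the higher members, and 409 to none, with 34. Over all members 9.64% were higher, and over all marked promoters 0.665%. The lists were chosen with earlier results of these data known, so the counts per list are a description. All 8 low GC promoters of the B cell surface and signalling list were marked and 0 of 8 were higher or lower. Their median log2 ratio was 0.28, near the 0.27 of all members, beside 0.0019 over all marked promoters. Over all 37 marked promoters of the list it was 0.08. The leukocyte phosphatase gene Ptprc (CD45) held 514 and 428 reads (ratio 1.37), Fcrl1 447 and 370 (1.38), Cd53 284 and 226 (1.43) and Plac8 231 and 182 (1.45). Ratios near 1 were found at Cr2, the complement receptor CD21 (282 and 342 reads, 0.941), Fcrl5 (314 and 342, 1.05) and the signalling adaptor gene Bank1 (236 and 252, 1.07). Set against the background of their GC class, the 8 members of the list ranged from 0.687 (Cr2) to 1.06 (Plac8).

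Transcription factors of the B lineage had only 2 low GC promoters of 20, both marked and 0 called, of which Ikzf1 had a ratio of 1.23. In the plasma cell list, 1 of 2 members was higher, Igj, while Slamf7 held 342 and 304 reads (1.28). Among activation and costimulation genes, 7 of 8 low GC promoters were marked and 2 were higher, Ctla4 and the early activation gene Cd69 (455 and 332 reads, 1.56, 1.35 to 1.81). Cd69 lost the call with each scaling other than TMM and in windows of 2 kb either side. Their median log2 ratio was 0.27. The others did not meet the call: Cd274, which encodes PD-L1 (79.0 and 59.1 RPM, 1.34), Tnfaip3 (1.20), Cd80 (188 and 182, 1.18), the IL-2 receptor chain gene Il2ra (161 and 159, 1.16) and Cd86 (255 and 274, 1.06).

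Chemotactic and orphan G protein coupled receptors had the most marked members of the 19 lists, with 13 of 20 low GC promoters marked, 1 higher, 1 lower and a median log2 ratio of 0.32. The lysophosphatidylserine receptor gene P2ry10 was higher (317 and 235 reads, 1.54, 1.30 to 1.83) and Gpr34 was lower. P2ry10 lost the call under the same alternatives as Cd69. Gpr65, a proton sensor, held 322 and 261 reads (1.41), Gpr174 184 and 151 (1.39), and Gpr183, the oxysterol receptor that guides B cells in the follicle, 202 and 172 (1.34). Gpr171 (302 and 293, 1.18), Lpar6 (291 and 284, 1.17), Gpr18 (417 and 424, 1.12) and P2ry14 (89 and 97, 1.05) came next. Gpr171, Gpr65 and Lpar6 had 96.1%, 94.3% and 93.6% of their reads downstream.

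Innate immune genes were covered by a pair of lists. Of 16 low GC promoters of interferon response genes 10 were marked, with 1 higher (Pyhin1, 136 and 102 reads, 1.52), 1 lower (Trim12a) and a median log2 ratio of 0.29. Pyhin1 lost the call with each scaling other than TMM and in windows of 500 bp either side. Gbp5 held 490 and 428 reads (1.31), Usp18 248 and 235 (1.20), Gbp2 167 and 147 (1.30), the DNA sensor gene Aim2 176 and 138 (1.46), and Ifi203, with 28.6% unique words, 79 and 81 (1.11). The start of Mndal, counted as another of the 10, lies 37 bp from that of Ifi203 and shares nearly all its reads (78 and 80). For Toll-like receptors and innate sensors 7 of 11 were marked and 0 called in either direction, with a median of 0.23. Tlr7, a sensor of single-stranded RNA, stood highest (222 and 169 reads, an interval of 1.22 to 1.84, and a ratio that rounds to the threshold from below), then Ly96 (213 and 183, 1.33), the LPS receptor Tlr4 (400 and 363, 1.26) and Tlr6 (241 and 234, 1.18). Nlrc4 (45.3 and 43.5 RPM, 1.04), Tlr1 (340 and 396, 0.980) and Naip2 (39 and 51, 0.873) were at the low end.

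Of the 23 marked promoters of the caspase, IAP and BCL2 list, 3 were higher, with a median log2 ratio of 0.14. Over all members, 9.64% were higher. The 3 higher ones of the list were all among its 5 members, whose median log2 ratio was 0.59. They were Birc2, Casp4 and the neighbouring Casp1 (317 and 240 reads, 1.51, 1.27 to 1.79), whose TSS lies 10332 bp from that of Casp4, and only Birc2 was higher within its GC class. Casp1 lost the call under the same alternatives as Cd69. The remaining pair, Bcl2a1b (55 and 51 reads) and Bcl2a1d (37 and 34), are near-identical copies with 13.1% and 12.5% unique words, so their reads are uncertain. C-type lectin and killer lectin receptors had 34 low GC promoters of 42, of which 4 were marked and 2 higher (Cd69 and Clec12a). Clec2d held 275 and 246 reads (1.28) and Klrd1 25 and 27 (1.06). All 4 low GC promoters of the SLAM family were marked and 0 called, with a median of 0.39: Slamf6 (511 and 427, 1.37), Ly9 (273 and 234, 1.33), Slamf7 and Cd84 (263 and 248, 1.21).

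Cytokines and chemokines had 15 low GC promoters and 1 marked, the chemokine gene Ccl3, which was higher (41 and 26 reads, 1.80, 1.07 to 3.06) and lost the call with each scaling other than TMM. The Fc receptor list had 2 of 4 marked, Fcrl1 and Fcrl5, with 0 called. Cytokine receptors had 2 of 7 marked, Il2ra and Il12rb2 (32 and 49 reads, 0.745), with no call. The MHC class II and antigen processing list had 2 of 2 marked, with 0 called: the lysosomal protease gene Ctss (294 and 253 reads, 1.33) and Cd1d2 (70 and 72, 1.11, with 47.3% unique words). The T and NK cell markers and the myeloid markers had no marked low GC promoter of 5 and of 2, and the erythroid and stromal list had 1 of 2, which was not called. None of the 19 housekeeping genes had a low GC promoter.

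The Ms4a genes ran against most members. They encode membrane proteins in a cluster on chromosome 19, and 3 of their 13 low GC promoters were marked, all with more wild-type reads and a median log2 ratio of -0.35. Ms4a6b held 81 knockout and 130 wild-type reads (ratio 0.711, 0.532 to 0.946), Ms4a4c 146 and 213 (0.782, 0.629 to 0.970) and Ms4a6c 161 and 202 (0.910, 0.735 to 1.12). None met the call with TMM, and all 3 were lower within their GC class, at 0.519, 0.571 and 0.664. The family was singled out after its values were seen.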

How the data were processed

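Members, gene lists and motifs were chosen with earlier results of these data known. Each line of the 2 deposited files is 1 mapped read of 25 bases. Per the submitters' processing notes, mm9 and SICER were used by the authors. An aligner was not given in the sources used here. No position and strand recurs within a file, and positions are 1-based, since the letter given for each mismatch then equals the NCBIM37 base in 100% of cases. The deposited values are other than counts or scores: read positions and strands with no normalization by the authors. Counts were made here. Each read's 5′ end was moved 75 bp into its fragment and reads within 1 kb of the TSS were counted. Native chromatin had been digested with MNase, and libraries had 18 PCR cycles, per the labels' protocols.

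The libraries were scaled by TMM (trims of 30% and 5%). Ratios have exact conditional binomial (Clopper-Pearson) 95% intervals. Since each genotype has 1 library, intervals cover counting error only. The reads carry no molecular identifiers. Islands were called here on both libraries combined: 200 bp windows of 9 or more reads, gaps up to 200 bp, 20 reads in all. Named members were the 10 with the most reads, up to 12 higher and the lower ones whose interval lay farthest from 1, up to 8 per list by reads, those next to each threshold and the 3 extremes of each shape measure from 200 reads on. Some members that this rule names are not reported here. Sequences with over 30 annotated UTR bases were passed over, so that Cytip, Btla, Ctla4, Rgs1 and Trim12a are not printed. Alternatives were other scalings, windows, shifts, TSS choices and thresholds. The scaling and the intervals were run on simulated reads drawn with counting error only, with no variation between libraries and no background reads. That run checks the computation and not the calls. Python 3.11.15, NumPy 2.4.6 and SciPy 1.17.1 were used.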

Additional observations from a re-analysis of the deposited data

How the results depend on the processing

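Alternatives are set beside 46 higher and 4 lower members of 477, a median log2 ratio of 0.27, and 0.36 at like reads. Total reads gave 22, 6 and 0.16, outside reads 12, 13 and -0.037, and GC class scaling 6, 26 and -0.18, with -0.24 at like reads. Windows of 2 kb either side gave 7 lower and a median of 0.24, and those of 500 bp 75 higher, 2 lower and 0.33. A minimum of 20 reads gave 7 lower and 0.40 at like reads, and one of 100 reads 1 lower and 0.32. GC under 40% gave 88 members, 27 higher, 1 lower, 0.51 and 0.64, and GC under 50% 2785 members, 35 lower, 0.16 and 0.23. GC taken over 500 bp gave 250 members. Alternatives added after seeing the data were centring on the members' median (13 higher, 11 lower) and background classes of 2.5 points (5, 18 and -0.10). The downstream share at like reads was 9.97 points and 11.8 with the 5′-most TSS. Relative density was 0.41 and 0.21 at GC under 50%. Island length was 75.1 bp, -165 bp with the 5′-most TSS, 895 bp at GC under 40% and -340 bp at GC under 50%. The distal islands' difference of 0.30 became -0.14 with GC class scaling. The background ratio below 45% GC over that of all background was 1.08, and 1.05 over 10 kb from any TSS or island. The cause of these changes was not tested. Leaving out chromosome 7 gave 45 higher and 3 lower. Of 21 named and called members, 21 kept the call without the shift, 15 with total reads, 12 with outside reads and 10 within GC classes. Length was not recomputed without the shift or by library, since islands were called on both. No paired analysis was possible because each genotype has 1 library. Depth leaves wide intervals for members near 50 reads, such as Ccl3 and Gpr34.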

Other observations

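Among members, those called higher with TMM were unevenly spread over classes of CpG content. Over all members 9.64% were higher, and over all marked promoters 0.665%. Of 170 members with an observed over expected CpG below 0.3, 33 were higher (19.4%), against 11 of 249 from 0.3 to 0.6 (4.42%) and 2 of 58 at 0.6 or more (3.45%). The median log2 ratio did not follow that order, at 0.33, 0.24 and 0.36. The median GC of the classes was 41.6%, 43.5% and 43.8%, so the first class was also the poorest in GC, and the part of each was not tested. TATAAA stood in 18 of the 46 higher members (39.1%), against 18.2% of all members, and 14 of these 18 were below 40% GC. Chromosome 1 held 8 of the higher members among its 44 members, beside the 9.64% over all members. Rgs13, Rgs1, Ctla4 and Zfp238 were among those 8. The members' median log2 ratio there was 0.39, the highest of the 20 chromosomes with 5 or more members.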
